A study of Mus musculus with 4 samples.

Results

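The genes described here build, guard and reshape mitochondria: the translocases that import proteins, the chaperones and proteases that fold or remove them, the proteins that fuse and divide the organelle, and the kinase and ligase that mark damaged mitochondria for removal. They were taken by name from all 27189 genes of the deposited tables, as every Timm and Tomm gene whose symbol goes on with a number and 21 further genes given by symbol, which gave 41 entries for 40 gene symbols (Timm9 had a pair of entries). RNA was measured in motor neuron cell bodies laser-dissected from the ventral horn of the spinal cord of mice aged 3 months, in 2 libraries from wild-type SOD1-YFP mice (strain 592) and 2 from G85R SOD1-YFP mice (strain 737). All 4 mice carried a human SOD1 genomic fragment fused to the gene for yellow fluorescent protein, on a mixed C57BL/6J x SJL/J background, with the G85R mutation in exon IV only in strain 737, and all were killed with ketamine and perfused with saline. Each library came from 3000 to 4000 cell bodies of 1 mouse. The G85R mice were homozygous for a transgene insertion on mouse chromosome 4 and carried many more transgene copies than the wild-type strain, so mutation, copy number and insertion site cannot be told apart in any difference below. Motor neurons that stained darkly and held bright aggregates were not captured, so the values describe the cell bodies without them. Levels are in RPKM, reads on a gene divided by the length of its transcript and by the uniquely mapped reads of the library, which allows levels of different genes to be compared.

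Nearly all mitochondrial proteins are made in the cytosol and enter through the TOM pore of the outer membrane. From there the small TIM chaperones of the intermembrane space, the TIM23 and TIM22 translocases of the inner membrane and the Hsp70 motor of the matrix carry them on, and quality control is left to the Hsp60/Hsp10 chaperonin and to the Lon, Clp and AAA proteases. Motor neurons depend on these systems along very long axons: mutations of MFN2 cause an axonal neuropathy and mutations of SPG7 a hereditary spastic paraplegia, and mitochondria are among the organelles most studied in SOD1-linked disease.

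The depth was similar in all libraries, with 2.16e+07 to 2.52e+07 estimated reads on genes, so that 1 read was worth a median of 0.0195 to 0.0226 RPKM. The 8 motor neuron markers summed to 2764 to 3069 RPKM in wild-type and 2494 to 2888 RPKM in G85R libraries, none was at 0, and 1 of 8 was higher in G85R. Glial RNA was also present, and the 7 astrocyte markers summed to 446 to 452 RPKM in wild-type and 532 to 621 RPKM in G85R libraries, with 6 of 7 higher in G85R. Most of each sum was a single gene, S100b, at 412 and 414 RPKM in wild-type and 498 and 483 RPKM in G85R libraries. Gfap, the intermediate filament of reactive astrocytes, was 11.5 and 17.1 RPKM in wild-type and 91.9 and 28.4 RPKM in G85R libraries. Of the 8 microglial markers, 6 were abundant enough to be tested, and all 6 had a log2 fold change above 0 in G85R. The list summed to 15.3 and 17.2 RPKM in wild-type and to 38.8 and 18.6 RPKM in G85R replicates 1 and 2, so most of the excess was in G85R replicate 1. In G85R replicate 2, C1qa, C1qb, C1qc and Tyrobp were above both wild-type values, and Csf1r and Cx3cr1 were below both. Red blood cell markers summed to 2.31 to 2.72 RPKM in wild-type and 12.7 to 13.5 RPKM in G85R libraries, both tested entries (of Hbb-b1) passed the test and 1 entry was at 0 in all libraries. The 7 oligodendrocyte markers summed to 833 to 893 and 812 to 1066 RPKM, and the 6 endothelial markers to 8.87 to 9.96 and 7.49 to 7.88 RPKM. The part of these cells in the differences below was not tested, and fewer cells of a type cannot be told apart from less RNA per cell.

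Most of the machinery was abundant in motor neurons. Of the 41 entries, 36 reached a mean of 1 RPKM and were tested with 11530 genes in all, and among those genes 32 of the 36 lay above the median level and 25 in the top 25%. Fis1, the outer membrane anchor for fission factors, stood highest with a mean of 192 RPKM, followed by Timm8b (173 RPKM), Pink1 (164 RPKM), Tomm7 (123 RPKM) and Hspa9 (117 RPKM). Fis1, Timm8b and Pink1 overlapped one another in their values over the 4 libraries, and so did Tomm7 and Hspa9. Levels of related genes were far apart. In the small TIM group, Timm8b was the highest at 154 to 189 RPKM, Timm13 had 88.5 to 96.4 RPKM, Timm10 had 67.5 to 73.4 RPKM and Timm9, the partner of Timm10 in a hexamer, had 29.1 to 45.0 RPKM. Among the TOM genes the pore gene Tomm40 had 87.8 to 97.2 RPKM, and its relative Tomm40l had 19.9 to 24.2 RPKM. Park2, the ubiquitin ligase that Pink1 activates, was at the other end of the list with 2.40 to 3.37 RPKM. The proteases were intermediate, from a mean of 17.0 RPKM for Clpx to 56.9 RPKM for Clpp.

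**Figure D1:**
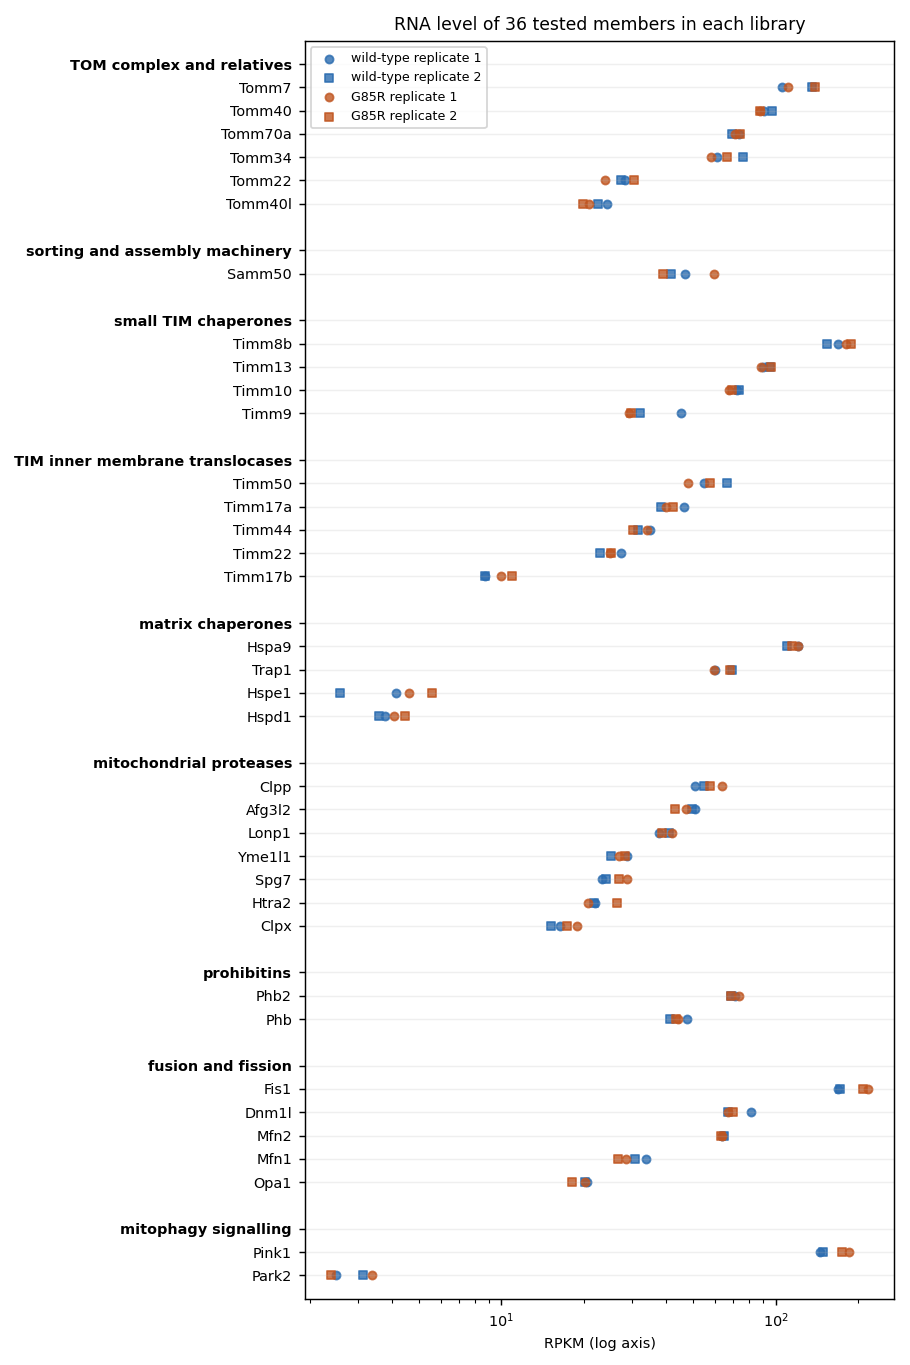
RNA level in RPKM (log axis) of the 36 tested members, grouped by role, with 1 point for each of the 4 libraries. The members span means of 2.84 RPKM (Park2) to 192 RPKM (Fis1), and for most of them the 4 points lie close together beside the distances between genes.

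The other 5 entries were too low for the test, and they include subunits that import requires. Timm23, the channel of the presequence translocase (chr14:32993348-33015084, NCBIM37, the mm9 build), was listed at 0 and 0.0565 RPKM in wild-type and at 0 and 0.0619 RPKM in G85R libraries. Tomm20, the presequence receptor, had 0.170 and 0.191 RPKM in wild-type and 0.148 and 0.210 RPKM in G85R libraries. Timm8a1 stayed between 0 and 0.0317 RPKM, Timm8a2 was above 0 in G85R replicate 2 alone, at 0.0385 RPKM, and the second Timm9 entry was listed at 0 in every library. For Timm23, Timm8a1 and Tomm20, much of the transcript was also found elsewhere in the genome. Each transcript was read in windows of 75 bases, the read length of the study, and each window was searched in the rest of NCBIM37 on both strands with up to 2 mismatches. No copy was found for any window of 22 of the 40 members, but only 0.728% of Timm23 windows, 14.8% of Timm8a1 windows and 30.0% of Tomm20 windows were free of a copy. The chaperonin genes Hspd1 (Hsp60, 9.15% free) and Hspe1 (Hsp10, 33.9% free) also had few free windows, and their levels of 3.57 to 4.43 and 2.57 to 5.58 RPKM were below those of 33 of the 36 tested members. Copies and low levels did not go together throughout. Phb (39.9% free) had 41.2 to 47.6 RPKM and Tomm22 (45.8% free) 23.8 to 30.4 RPKM, while Timm8a2 and Park2, with all windows free, were near 0 and low. The study states that another chaperone gene, Hspa8, could not be evaluated, and gives its processed pseudogenes in the genome as the reason. How reads that match several places were counted is not given in the sources used here, and the part of the copies in these levels was not tested.

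The coding sequences of some of these members and their closest copies show how little separates them. Each pair below gives 30 coding bases of the transcript and the same stretch of the copy, 5′ to 3′, with the start codon in capitals for Timm23 and the base that differs in capitals for the others.
Timm23 coding bases 1 to 30: ATGgaaggtggcggaggaagtagcaacaaa
copy at chr10:58858503-58858532 (+): ATGgaaggtggcggaggaagtagcaacaaa
Tomm20 coding bases 48 to 77: cttcatcgggtactgCatctacttcgaccg
copy at chr2:153651954-153651983 (+): cttcatcgggtactgTatctacttcgaccg
Hspd1 coding bases 90 to 119: aaaatttggtgcggaCgctcgagccttaat
copy at chr11:41312328-41312357 (+): aaaatttggtgcggaTgctcgagccttaat
Phb coding bases 216 to 245: accacggaacgtaccAgtcatcactggtag
copy at chr15:6604138-6604167 (+): accacggaacgtaccGgtcatcactggtag
The Timm23 copy, annotated as the pseudogene Gm10273, was identical over all 630 coding bases, and the Timm8a1 copy on chromosome 10, Gm9797, over all 294. Tomm20 and the pseudogene Gm14494 differed at 2 of 438 coding bases, Hspd1 and the pseudogene Gm12141 at 18 of 1722, and Phb and the pseudogene Gm7666 at 1 of 819. Since reads of such genes can fall on a copy, their RPKM are uncertain as levels, and this holds for Timm23, Timm8a1, Tomm20, Hspd1, Hspe1, Phb and Tomm22, the 7 members with under 50% of windows free.

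**Figure D2:**
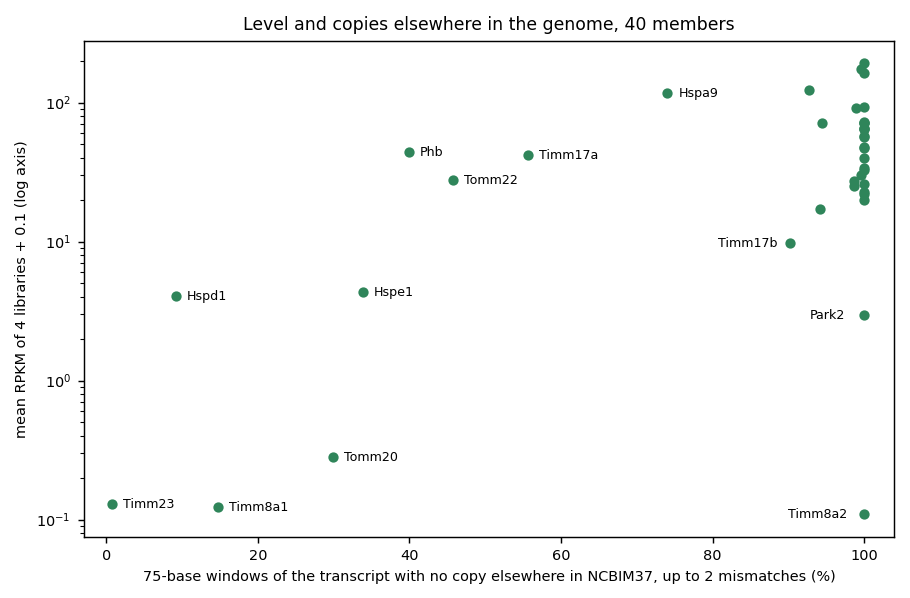
Mean RPKM of the 4 libraries plus 0.1 (log axis) of 40 members, each by its highest entry, against the percent of 75-base windows of its transcript that had no copy elsewhere in NCBIM37 with up to 2 mismatches. Timm23, Timm8a1 and Tomm20 are low in both measures, Phb and Tomm22 have many copies at 44.0 and 27.4 RPKM, and Timm8a2 and Park2 are low with all windows free.

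The comparison of G85R with wild-type motor neurons asks whether the mutant protein changes this machinery before paralysis begins. No member passed the test in either direction. Fis1 and Pink1 had the smallest p-values and were about 1.25 and 1.23 times their wild-type level in G85R, the chaperonin gene Hspe1 had the largest increase, at a low level, and Timm9 the largest decrease. Members differed in both directions, as many higher as lower, and the median of their log2 fold changes was 0.01. Limma called 0 of the 36 tested members at an adjusted p under 0.05, where it called 74 of 11530 genes (0.642%). At an unadjusted p under 0.05 there were 3 members, 8.33% of them against 11.0% of all tested genes. Higher means in G85R were seen in 18 of 36 members, where the share among all tested genes was 45.3%. After rescaling of each library by the median ratio 23 of 36 members were higher (63.9%), where the share among all tested genes was 50.4%. The genotypes did not overlap, meaning that the lower value of a genotype exceeded the higher value of the other, in 16 of 36 members (44.4%), 9 of them higher and 7 lower in G85R, and in 41.2% of all tested genes. A likelihood ratio test in a log-linear model, the kind of test the study names, gave an unadjusted p under 0.05 for Fis1 and Pink1, 2 of all 41 entries (4.88%, against 1.29% of 27189 genes), and an adjusted p under 0.05 for 0. These shares are not alike, since 36 of the 41 entries but only 11530 of the 27189 genes reached a mean of 1 RPKM. That test uses rounded RPKM, in which genes near 0 can hardly reach such a p, so no excess is read from it. When the replicate number was added to limma as a block, 1 of 36 members passed (2.78%, against 4.57% of all tested genes), which was Fis1, although the labels do not say what same-numbered mice share.

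The members' differences between genotypes were, by their median, of about the size of the differences between mice of a genotype. The measures are unlike, since the former are between means of 2 mice, which vary less than the single mice of the latter. The median absolute log2 fold change of the members was 0.095, against 0.12 for all tested genes, and replicates of a genotype differed from each other by a median of 0.12 in wild-type and 0.11 in G85R. A difference under 0.1 was found for 19 members and one over 0.25 for 5. The 95% interval of the fold change lay within a 2-fold change either way for 35 of 36 members (97.2%, against 92.7% of all tested genes), the exception being Hspe1. With 2 mice a genotype, permuting the labels of 1 gene exactly gives a two-sided p of 0.33 at the least, so the p-values below rest on limma, which shares the estimate of spread among all genes, and a p that misses the threshold does not show that levels were equal.

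**Figure D3:**
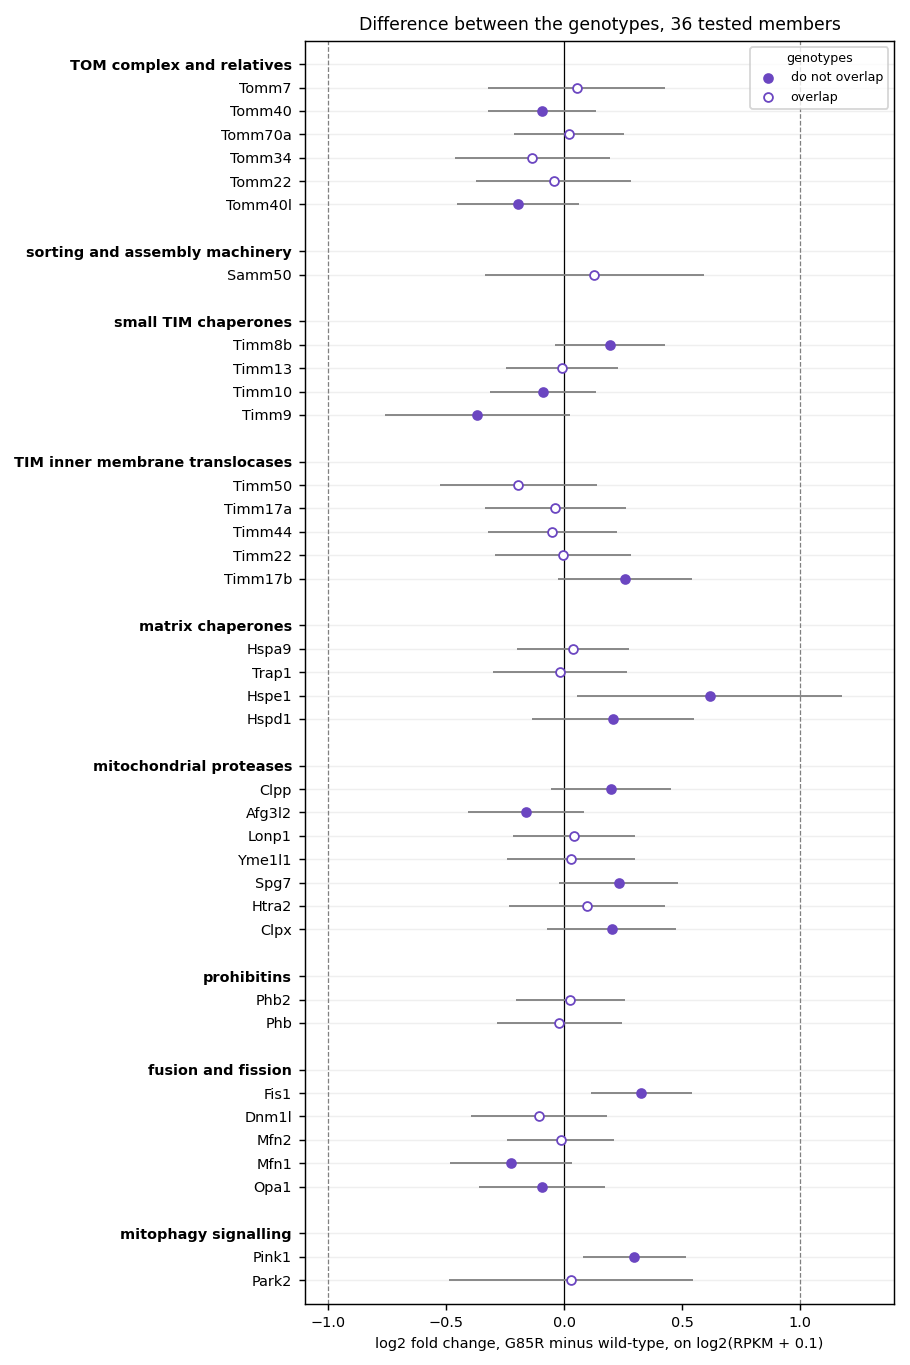
Log2 fold change of the 36 tested members, G85R minus wild-type on log2(RPKM + 0.1), with the 95% interval of limma as a bar, grouped by role; filled points are members whose genotypes did not overlap and dashed lines mark a 2-fold change. The intervals of Fis1, Pink1 and Hspe1 leave out 0, and all but that of Hspe1 stay inside the dashed lines.

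At the outer membrane, 2 of 6 tested TOM genes were higher in G85R and 4 lower, none passed the test, and their median difference was -0.07 on the log2 scale. Tomm40l, a relative of the pore protein, had 24.2 and 22.5 RPKM in wild-type and 20.9 and 19.9 RPKM in G85R libraries. Both G85R values lay below both wild-type values, with a log2 fold change of -0.20 (SE 0.11, limma adjusted p = 0.584). Tomm40 itself had 90.7 and 97.2 RPKM in wild-type and 88.1 and 87.8 RPKM in G85R libraries (log2 fold change -0.09). Tomm7, a small subunit of the pore complex, followed the replicate number more than the genotype, with 106 and 136 RPKM in wild-type and 111 and 139 RPKM in G85R libraries. Its log2 fold change was 0.05 (SE 0.16, limma adjusted p = 0.952). The receptor genes Tomm22 and Tomm70a and the cytosolic co-chaperone gene Tomm34 overlapped between genotypes, with log2 fold changes of -0.04, 0.02 and -0.14. Samm50, the core of the machinery that inserts barrel proteins, varied within G85R, at 46.7 and 41.7 RPKM in wild-type and 59.6 and 39.0 RPKM in G85R libraries. Its direction rested on G85R replicate 1, since the log2 fold change of 0.13 (95% interval -0.33 to 0.59) was -0.18 without that library and 0.43 without G85R replicate 2.

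The small TIM chaperones, which escort hydrophobic proteins across the intermembrane space, held the largest decrease among the members. Timm9 had 45.0 and 32.0 RPKM in wild-type and 29.1 and 29.7 RPKM in G85R libraries. Wild-type replicate 1 stood above the other libraries, which lay close together. The log2 fold change was -0.37 (SE 0.17, limma adjusted p = 0.482), -0.12 without that library and -0.61 without wild-type replicate 2. Timm8b was the opposite case, with 169 and 154 RPKM in wild-type and 180 and 189 RPKM in G85R libraries, no overlap, and a log2 fold change of 0.19 (SE 0.10, limma adjusted p = 0.537). Timm10 was lower without overlap by a small margin (72.2 and 73.4 RPKM in wild-type against 67.5 and 69.4 RPKM, log2 fold change -0.09), and Timm13 overlapped (log2 fold change -0.01).

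Among the inner membrane translocases 1 of 5 tested members was higher in G85R and 4 were lower. The higher one was Timm17b, an alternative partner of the Timm23 channel, at 8.73 and 8.71 RPKM in wild-type and 9.95 and 11.0 RPKM in G85R libraries. Replicates were close in wild-type and did not overlap those in G85R, with a log2 fold change of 0.26 (SE 0.12, limma adjusted p = 0.502). Its paralog Timm17a overlapped between genotypes at 38.2 to 46.5 RPKM (log2 fold change -0.04). Timm50, the receptor that hands precursors to Timm23, had 54.7 and 66.3 RPKM in wild-type and 48.0 and 57.7 RPKM in G85R libraries. These values overlapped, with the higher of each genotype in replicate 2 and a log2 fold change of -0.20 (SE 0.14, limma adjusted p = 0.699). It was -0.06 without either wild-type replicate 2 or G85R replicate 1 and -0.33 without either of the other libraries. Timm44, which ties the import motor to the channel, and Timm22, the carrier translocase, had log2 fold changes of -0.05 and 0.00.

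The matrix chaperones fell into an abundant and a low pair. Hspa9 (mortalin), the Hsp70 of the import motor, had 121 and 110 RPKM in wild-type and 121 and 115 RPKM in G85R libraries, with overlap and a log2 fold change of 0.04 (SE 0.10, limma adjusted p = 0.950). Trap1, the mitochondrial Hsp90, overlapped at 59.8 to 69.3 RPKM (log2 fold change -0.02). The chaperonin genes Hspd1 and Hspe1 lie head to head on chromosome 1, on opposite strands, with overlapping first ends (Hspd1 chr1:55134679-55145087, Hspe1 chr1:55144976-55148151). Hspe1 had 4.13 and 2.57 RPKM in wild-type and 4.59 and 5.58 RPKM in G85R libraries, from about 71, 47, 72 and 93 reads. Both G85R values were above both wild-type values, although G85R replicate 1 was close to wild-type replicate 1. The log2 fold change was 0.62 (SE 0.24, 95% interval 0.06 to 1.18, limma adjusted p = 0.416), 0.29 without wild-type replicate 2 and 0.95 without wild-type replicate 1. Hspd1 differed in the same direction by less, at 3.75 and 3.57 RPKM in wild-type and 4.06 and 4.43 RPKM in G85R libraries (log2 fold change 0.21, limma adjusted p = 0.689).

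Of the 7 proteases 6 were higher in G85R and 1 was lower, none passed the test, and the median difference was 0.10 on the log2 scale. Spg7 (paraplegin), a subunit of the AAA protease that faces the matrix, had 23.2 and 24.1 RPKM in wild-type and 28.8 and 26.8 RPKM in G85R libraries. Both G85R values were above both wild-type values (log2 fold change 0.23, SE 0.11, limma adjusted p = 0.494). Afg3l2, the other subunit of the same protease, was the lower one, at 50.8 and 49.7 RPKM in wild-type and 47.0 and 42.8 RPKM in G85R libraries, also without overlap (log2 fold change -0.16, SE 0.10, limma adjusted p = 0.656, and -0.09 without G85R replicate 2). Clpp, a matrix peptidase, and Clpx, the ATPase that feeds it, were both higher without overlap and by a log2 fold change of 0.20. Clpp had 50.8 and 55.0 RPKM in wild-type and 63.8 and 57.8 RPKM in G85R libraries, and Clpx 16.4 and 15.1 RPKM against 18.9 and 17.4 RPKM. Lonp1, the Lon protease of the matrix, Yme1l1, the AAA protease on the other face of the inner membrane, and Htra2 of the intermembrane space overlapped, with log2 fold changes of 0.04, 0.03 and 0.10. The prohibitin genes Phb and Phb2, whose products form a ring-shaped scaffold, also overlapped between genotypes. They had 41.2 to 47.6 and 69.0 to 73.7 RPKM, with log2 fold changes of -0.02 and 0.03.

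Of the 5 genes of fusion and fission 1 was higher in G85R, Fis1, 4 were lower and none passed the test. Fis1 (chr5:137429145-137442104) had 168 and 171 RPKM in wild-type and 217 and 209 RPKM in G85R libraries, means of 170 ± 2.14 and 213 ± 5.19 RPKM (SD, n = 2 mice each). The replicates of each genotype were close and the genotypes did not overlap. The log2 fold change was 0.33 (SE 0.09, 95% interval 0.11 to 0.54) and missed the threshold after adjustment over all tested genes (limma adjusted p = 0.239). Dnm1l, the GTPase that divides mitochondria, overlapped at 67.2 to 81.7 RPKM (log2 fold change -0.11). Mfn1, which fuses outer membranes, was lower without overlap, at 33.6 and 30.8 RPKM in wild-type and 28.4 and 26.6 RPKM in G85R libraries (log2 fold change -0.23, SE 0.11, limma adjusted p = 0.520). Its paralog Mfn2 had nearly the same level in every library, 63.8 and 64.7 RPKM in wild-type and 63.9 and 63.2 RPKM in G85R (log2 fold change -0.02, 95% interval -0.24 to 0.21). Opa1, which fuses inner membranes, had 20.5 and 20.2 RPKM in wild-type and 20.1 and 18.02 RPKM in G85R libraries, without overlap by a narrow margin (log2 fold change -0.09).

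Pink1, the kinase that gathers on damaged mitochondria, had 145 and 148 RPKM in wild-type and 186 and 176 RPKM in G85R libraries, means of 147 ± 2.37 and 181 ± 7.08 RPKM (SD, n = 2 mice each). The genotypes did not overlap, and the log2 fold change was 0.30 (SE 0.09, 95% interval 0.08 to 0.52, limma adjusted p = 0.307). Pink1 lies on chromosome 4 (chr4:137869324-137882222), the chromosome that carries the transgene insertion in the G85R strain, as does Mfn2 (chr4:147247708-147278813). The part of the insertion and of the strain's own alleles near it was not tested. Park2, encoding parkin, overlapped at 2.48 and 3.12 RPKM in wild-type and 3.37 and 2.40 RPKM in G85R libraries (log2 fold change 0.03, 95% interval -0.49 to 0.55). Without G85R replicate 1, Fis1 and Pink1 had unadjusted p-values of 0.0662 and 0.112, and Hspe1 was the 1 member under 0.05.

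Ratios of partner genes within a library do not depend on how that library was scaled. Of 14 pairs of subunits, paralogs or counterparts, 12 had both genes at a mean of at least 1 RPKM, and 7 of the 12 did not overlap between genotypes. Among all 630 pairs of the 36 tested members 45.1% did not overlap. The difference was largest relative to the replicates for the subunits of the matrix-facing AAA protease, with Afg3l2 over Spg7 at 2.18 and 2.06 in wild-type libraries against 1.63 and 1.60 in G85R libraries. This was a difference of -0.40 in the log2 ratio, where replicates differed by 0.08 in wild-type and 0.03 in G85R. Dnm1l over Fis1 was 0.485 and 0.392 in wild-type libraries against 0.311 and 0.335 in G85R (difference -0.44, replicate differences 0.31 and 0.11). Mfn1 over Mfn2 was 0.527 and 0.475 in wild-type libraries against 0.444 and 0.421 in G85R (difference -0.21, replicate differences 0.15 and 0.08). Timm17a over Timm17b was 5.32 and 4.39 against 4.01 and 3.86, a difference of -0.30 that was close to the wild-type replicate difference of 0.28. For Hspd1 over Hspe1 and for Timm9 over Timm10 the difference (-0.42 and -0.28) was smaller than that between the wild-type replicates (0.61 and 0.52), and for Timm44 over Hspa9 (-0.09) it was near that between the G85R replicates (0.09). Ratios of Tomm40 to Tomm40l, Clpp to Clpx, Opa1 to Yme1l1, Phb to Phb2 and Pink1 to Park2 overlapped. No p was computed for the ratios, where an exact permutation test gives at the least the 0.33 stated above, so they are given as values.

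**Figure D4:**
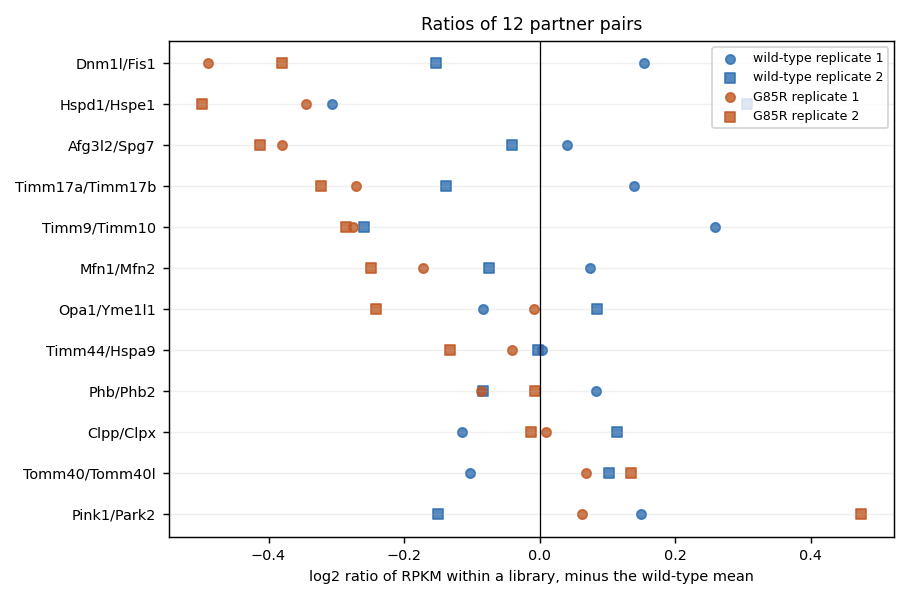
Log2 ratio of the RPKM of 12 pairs in each of the 4 libraries, minus the wild-type mean of that pair, ordered by the difference between genotypes. For Afg3l2/Spg7 the points of each genotype lie together and apart from the other genotype, while for Timm9/Timm10 wild-type replicate 1 alone stands apart and for Pink1/Park2 the genotypes overlap.

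Other genes of the same systems were counted in the same way. Of 64 further symbols of import and processing, proteases and cristae, dynamics and mitophagy, and mitochondrial stress and biogenesis, 55 were found and 53 tested. None was called by limma. An unadjusted p under 0.05 was found for 2 (3.77%, against 11.0% of all tested genes), 24 were higher in G85R (45.3%, against 45.3%), 17 did not overlap (32.1%, against 41.2%), and their median difference was -0.01 on the log2 scale. The 2 genes were Chchd4, the oxidoreductase that traps cysteine-rich proteins such as small TIMs in the intermembrane space, and Hscb, a co-chaperone of iron-sulfur cluster assembly. Chchd4 had 14.0 and 12.8 RPKM in wild-type and 16.1 and 19.7 RPKM in G85R libraries (log2 fold change 0.41, SE 0.14, limma adjusted p = 0.341). Hscb had 9.58 and 7.59 RPKM in wild-type and 12.5 and 10.4 RPKM in G85R libraries (log2 fold change 0.41, SE 0.16, limma adjusted p = 0.418). Polg, the mitochondrial DNA polymerase, had the largest decrease, at 30.6 and 27.5 RPKM in wild-type and 25.9 and 21.4 RPKM in G85R libraries (log2 fold change -0.30, limma adjusted p = 0.473). Regulators of the mitochondrial stress response overlapped between genotypes, with log2 fold changes of 0.02 for Atf4, 0.21 for Atf5 and -0.07 for Ddit3. The mitophagy adaptor gene Sqstm1, at 491 to 510 RPKM, and Park7 (DJ-1), at 311 to 360 RPKM, overlapped between genotypes, each with a log2 fold change of -0.01.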

How the data were processed

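RNA-Seq libraries of 4 mice were compared, 2 wild-type and 2 G85R, grouped by their labels as biological replicates, so limma's p-values measure the spread between mice. The authors mapped single-end reads with Bowtie 0.12.3 (submitters' processing notes) to mm9 and a splice database and quantified genes with Cufflinks. The deposited values are RPKM as calculated and RPKM with 1 read added to every gene. Their difference gave the RPKM of 1 read and the estimated reads, which are not exact counts. The test between genotypes was that of limma (version 3.58.1; lmFit, eBayes with trend; R 4.3.3) on log2(RPKM + 0.1) for 11530 genes with a mean of at least 1 RPKM, with Benjamini-Hochberg adjustment over all of them and calls at an adjusted p under 0.05. Fold changes of low genes are understated on this scale. The log-linear test took rounded RPKM with 1 read added as Poisson values over 27189 genes, so its p-values rest on that variance. The fit was tested on simulated data with changes larger than that of any tested member, so smaller effects were not covered. The search for copies was tested on simulated sequence. Transcripts, coordinates and copies came from GENCODE annotation of NCBIM37, in which all 40 symbols were found. Members called, those with an unadjusted p under 0.05, the 5 largest increases and decreases and the 5 highest levels were described in full. Alternatives were other pseudocounts, scalings, filters and variance estimates, a replicate block, leaving out each library and, added after the data were seen, leaving out members with copies. Members, lists and pairs were chosen with earlier results of these data known. Values of the study's comparisons were not used.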

Additional observations from a re-analysis of the deposited data

How the results depend on the processing

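Limma called 0 members under every alternative without a block. Over all genes it called 40 after quantile normalization, 17 with a minimum of 5 RPKM, 112 without a filter, 49 without a trend and 78 to 188 with a library left out, where the lone library is taken to vary like the others. Members with an unadjusted p under 0.05 numbered 5 without a filter and 1 to 3 with a library left out, 1 of them without G85R replicate 1. The median log2 fold change of members was 0.031 after median-ratio rescaling and -0.0094 to 0.040 with a library left out, the highest without wild-type replicate 1. Among the members described in full, direction reversed for Tomm7 and Hspa9. Tomm7 was at -0.13 without wild-type replicate 1 and -0.11 without G85R replicate 2, in a range of -0.13 to 0.24. Hspa9 was at -0.030 without wild-type replicate 2 and -0.0017 without G85R replicate 1, in a range of -0.030 to 0.10. Other members reversed too, such as Samm50 (0.13 with all libraries, -0.18 without G85R replicate 1) and Dnm1l (-0.11 with all libraries, 0.03 without wild-type replicate 1). After median-ratio rescaling Mfn2, Timm22, Timm13, Trap1 and Phb turned from slightly below 0 to between 0.003 and 0.019. Counts of higher and lower members within a group therefore depend in part on the scaling. The cause of these shifts was not tested. Under the alternatives, counts of members higher in G85R ran from 15 (of 30, 33 or 36 members, by setting) to 23 (of 36, after median-ratio rescaling). Counts of members without overlap ran from 14 (of 30 or 33) to 17 (of 41, without a filter). The number of members tested differed among these settings. Of these counts, only that after rescaling has its share over all tested genes given above, so no stability is read from the ranges. The members described in full other than Tomm7 and Hspa9 kept their direction.

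The labels do not say what a replicate number stands for, and the differences of replicate 1 from replicate 2 had a correlation of 0.22 between the genotypes over 11530 genes and of -0.00 over the 36 members. Under a block on that number limma made 527 calls over all tested genes, against 74 without it, and called 1 member, Fis1 (adjusted p = 0.0411). An unadjusted p under 0.05 was found for 8 of 36 members. The share of all tested genes at that p is not given under the block, so no excess is read from the 8.

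Depth limits the low members: Hspe1 rests on 47 to 93 reads a library and Park2 on 134 to 191.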
